A study of Mus musculus with 18 samples.

Results

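The genes described here are 38 that encode parts of the kinetochore and of the spindle checkpoint, measured in crypts of the mouse small intestine, and 37 of them were among the 18193 genes tested. They were chosen by name, and each was read from the probe set with its highest mean signal over all 18 arrays. Hjurp, which encodes the chaperone that deposits CENP-A, was left out because its 5 probe sets are shared with other gene symbols. RNA came from crypts of mice aged 2 months, taken 2 days after induced deletion. The groups were E2f/Myc QKO (Myc, E2f1, E2f2 and E2f3 deleted, n = 5 arrays), E2f TKO (E2f1, E2f2 and E2f3 deleted, n = 5), Myc KO (Myc deleted, n = 4) and control (n = 4). Deletion used Ah-cre, a Cre recombinase driven by the promoter of Cyp1a1, a gene that aryl hydrocarbon receptor ligands induce, among other tissues in gut epithelium. The labels do not give the controls' alleles or treatment, nor say whether E2f1 and E2f2 were deleted by the Cre or already lacking from birth. They do not say that each array is a separate mouse, so p-values measure the spread between these samples, part of which may be technical.

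The kinetochore is the protein structure that joins a chromosome to the spindle. Its inner layer sits on nucleosomes that carry the histone variant CENP-A, and its outer layer, built around the NDC80 complex, holds microtubule ends. Unattached kinetochores recruit checkpoint proteins that hold the cell in mitosis, and the chromosomal passenger complex, with the kinase Aurora B, releases wrong attachments. Crypts hold the dividing stem and progenitor cells of the gut, and most of these genes are known to be transcribed late in the cell cycle. In bulk crypts, fewer cells of a type and less RNA per cell cannot be told apart.

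Values are log2 signals as deposited, and differences are in log2 units with the standard error of 1 limma fit over all arrays. A gene passed where its p, adjusted over all genes tested, was below 0.05. No detection calls were used. Array medians were 6.23 to 6.26 (E2f/Myc QKO), 6.14 to 6.19 (E2f TKO) and 6.22 to 6.26 (Myc KO), against 6.15 to 6.17 (control), and a signal near them is not shown to be above background. Array values are listed in the order of the replicate numbers.

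Myc followed the labels, with signals of 7.94 to 8.52 (E2f/Myc QKO), 9.99 to 10.66 (E2f TKO) and 8.11 to 8.40 (Myc KO), against 9.69 to 10.30 (control). The arrays labelled E2f TKO 2 and 5 went against their label. Their E2f3 signals of 9.35 and 9.10 lay above the control arrays (8.62 to 8.96), where the other 3 E2f TKO arrays read 8.08 to 8.39, and their Cyp1a1 signals were 5.05 and 4.91, against 12.66 to 14.09 in the other 16 arrays. E2f3 read 8.09 to 8.19 in E2f/Myc QKO arrays and 8.44 to 8.60 in Myc KO arrays. The Myc KO arrays, where E2f3 is not deleted by label, thus also lay below every control array. The array E2f TKO 1 stood apart in another way. Its mean over the 37 members was -0.77 from the control mean, where the other E2f TKO arrays lay at -0.19 to 0.03, and it was the lowest of its group for 35 of the 37 members. Its means over the enterocyte and T cell marker lists were 0.98 and 1.38 above the control means. Among E2f/Myc QKO arrays, array 4 was the highest for 31 of the 37 members, with an enterocyte list mean of -1.32 and a stem cell list mean of 0.93 from the control means. Arrays of the other groups stood apart too, with Myc KO 4 the highest for 30 members, Myc KO 2 the lowest for 27, control 4 the highest for 24 and control 2 the lowest for 22. The mean over 10 measured enterocyte genes of 11 listed was 11.52 to 13.08 (E2f/Myc QKO), 12.25 to 13.81 (E2f TKO) and 12.71 to 12.95 (Myc KO), against 12.54 to 13.15 (control). That over 8 T cell genes of 9 was 7.19 to 8.00 (E2f/Myc QKO), 6.34 to 8.75 (E2f TKO) and 7.43 to 8.16 (Myc KO), against 6.98 to 8.33 (control). Enteroendocrine genes, 7 measured, averaged 10.53 to 10.85 (E2f/Myc QKO), 10.28 to 10.38 (E2f TKO) and 10.11 to 10.42 (Myc KO), against 9.56 to 9.997 (control), so each deleted group lay above control without overlap. The stem cell list averaged 9.76 to 10.61 (E2f/Myc QKO), 8.86 to 10.39 (E2f TKO) and 9.62 to 9.95 (Myc KO), against 9.52 to 9.77 (control), with E2f TKO 1 the lowest array. The actin 3′ minus 5′ signal, a measure of RNA quality, was 0.19 to 0.31 (E2f/Myc QKO), 0.26 to 0.78 (E2f TKO) and 0.18 to 0.22 (Myc KO), against 0.31 to 0.44 (control). Epithelial markers (Epcam, Cdh1, Vil1 and 5 others) averaged 12.39 to 12.67 on every array. The part of these markers and of RNA quality in the results below was not tested.

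In E2f/Myc QKO crypts, 13 of the 37 members fell and 7 rose against control. The largest falls were in Cenpa, the centromeric histone, at 4.14-fold lower, and in Cenpf of the fibrous corona (3.11-fold lower). Cenpl of the inner kinetochore fell to signals near the array medians, which leaves the size of its fall uncertain. Cenph, another inner kinetochore subunit, rose most, 1.84-fold. The 20 members called are 54.1% of the list, and 26.9% of all genes tested were called in this comparison. By direction, 12.6% of all genes were lower and 14.3% higher. The median difference of the members was -0.34, against 0.03 over all genes. It was -0.22 after quantile normalization and -0.14 where the probe sets of each gene were averaged. Averaging with dimmer probe sets kept these calls but gave smaller differences, -0.87 for Cenpa, -0.83 for Cenpf, -0.53 for Spc25, -0.43 for Bub1b, -0.30 for Ska1, 0.28 for Zwint and 0.15 for Cenpo. The 2 groups of arrays did not overlap for 18 members (48.6%), and for 26.2% of all genes. Without E2f TKO 1, which lies in neither group but enters the shared spread, 26 members passed. In that setting 5713 of all 18193 genes were called. The members added were Incenp, Cenpi, Bub1, Bub3, Cenpm and Cdca8, all lower (adjusted p 0.00564 to 0.0307). The plot of differences by role shows that falls and rises mixed within the inner and the outer kinetochore.

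**Figure D1:**
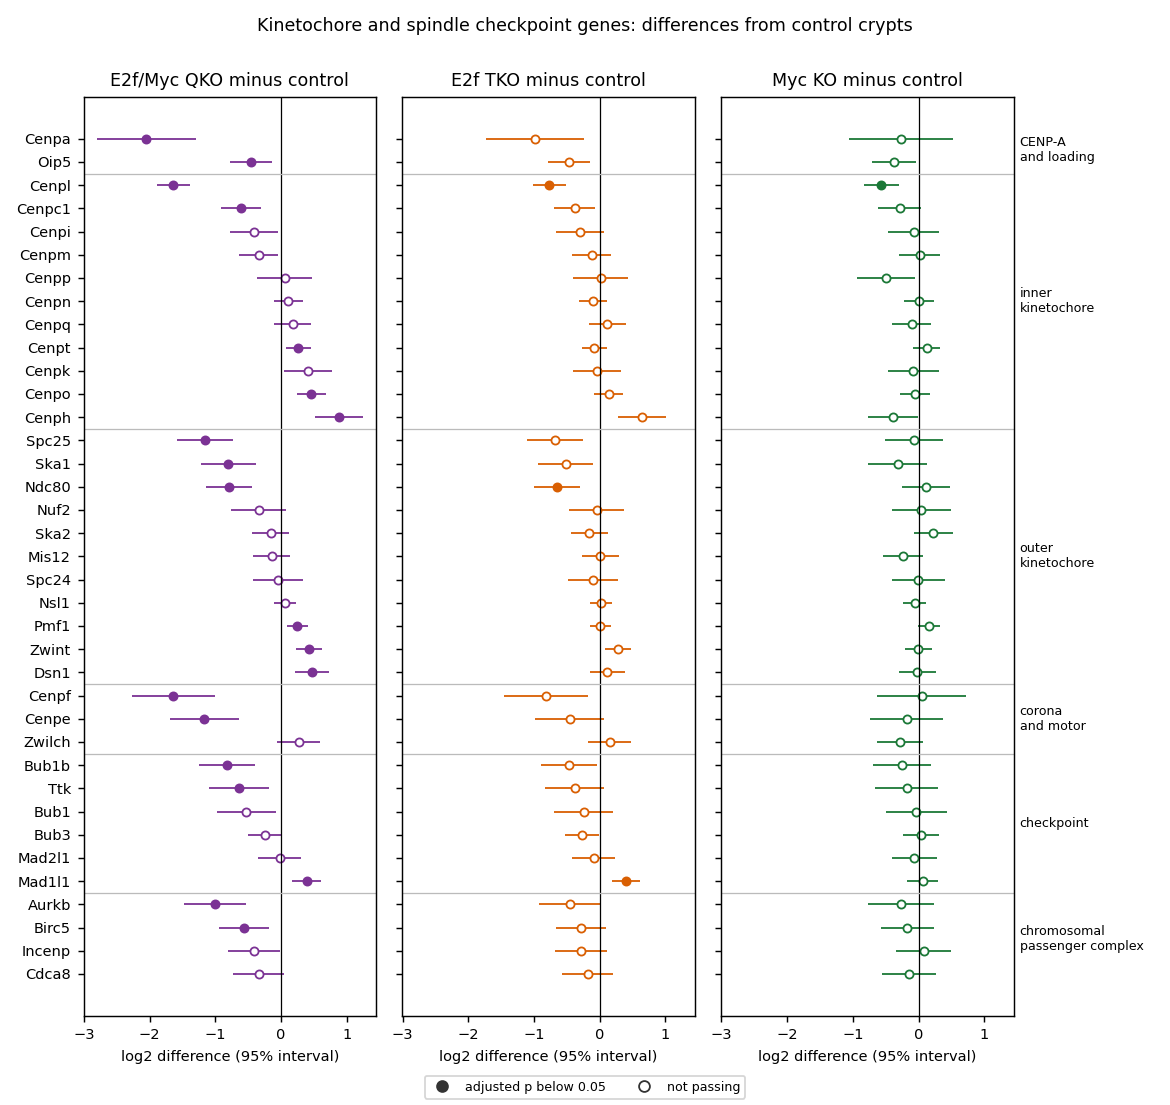
Log2 difference from control with its 95% interval (x axis) for each of the 37 measured members (y axis, by role) in E2f/Myc QKO, E2f TKO and Myc KO crypts. Filled points passed the limma test at an adjusted p below 0.05, of which there are 20, 3 and 1, and Cenpl is filled in all 3 panels.

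Both measured genes of CENP-A and its loading fell in E2f/Myc QKO crypts. Cenpa read 9.33, 7.61, 8.58, 9.39 and 9.08 in E2f/Myc QKO arrays, 8.61, 10.60, 9.67, 10.02 and 10.42 in E2f TKO arrays and 10.42, 10.34, 10.69 and 10.85 in Myc KO arrays, against 10.75, 10.72, 10.94 and 10.97 in control arrays. All 5 E2f/Myc QKO arrays lay below every Myc KO and control array, with array 2 far the lowest, and they overlapped the E2f TKO arrays through E2f TKO 1. The difference from control was -2.05 ± 0.36 (adjusted p = 0.000499). Of the 3 Cenpa probe sets, a dimmer one fell by 0.81 (adjusted p = 0.000634 over probe sets). Averaged over all 3 the difference was -0.87, so the remaining set did not fall. Oip5, known in human cells as part of the Mis18 complex that prepares centromeres for new CENP-A, read 7.22, 7.40, 7.40, 7.66 and 7.80 in E2f/Myc QKO arrays, 7.04, 7.50, 7.29, 7.82 and 7.79 in E2f TKO arrays and 7.63, 7.31, 7.75 and 7.63 in Myc KO arrays, against 7.81, 7.85, 8.04 and 8.11 in control arrays. The E2f/Myc QKO arrays all lay below the control arrays, the highest of them at 7.80 against a lowest control of 7.81. The difference was -0.46 ± 0.15 (adjusted p = 0.0338), and the call was lost without control 3 or 4 or without E2f/Myc QKO 1, 2 or 3 (adjusted p 0.0682 to 0.1).

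Of the 11 inner kinetochore genes measured, 2 fell, 3 rose and 6 did not pass. These encode the constitutive centromere network, which lies on CENP-A chromatin through the whole cell cycle. Cenpl, which pairs with CENP-N to read CENP-A nucleosomes, read 6.08, 6.06, 6.15, 6.42 and 6.35 in E2f/Myc QKO arrays, 6.91, 7.31, 6.98, 6.95 and 7.26 in E2f TKO arrays and 7.03, 7.18, 7.33 and 7.58 in Myc KO arrays, against 7.79, 7.85, 8.07 and 7.69 in control arrays. The 5 E2f/Myc QKO arrays lay below all 13 others, and every E2f TKO and Myc KO array lay below every control array. The difference between E2f/Myc QKO and control was -1.64 ± 0.12 (adjusted p = 1.6e-07), the smallest p among the members. The E2f/Myc QKO signals lay close to the array medians, so the size of this difference is uncertain. Its partner Cenpn did not pass, with a difference of 0.11 and a 95% interval of -0.10 to 0.33. The other inner kinetochore gene that fell was Cenpc1, which encodes CENP-C, the link from CENP-A nucleosomes to the outer layer, at -0.61 ± 0.15 (adjusted p = 0.00585).

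Cenph moved the other way. It read 7.29, 7.78, 7.71, 8.33 and 8.09 in E2f/Myc QKO arrays, 7.21, 7.51, 7.72, 7.94 and 7.64 in E2f TKO arrays and 6.48, 6.35, 6.63 and 6.82 in Myc KO arrays, against 6.82, 6.95, 6.93 and 7.13 in control arrays. Every E2f/Myc QKO array lay above every Myc KO and control array, and the difference from control was 0.88 ± 0.17 (adjusted p = 0.00123). Its partners in the same subcomplex did not pass, with differences of -0.40 for Cenpi, -0.34 for Cenpm and 0.41 for Cenpk (adjusted p = 0.0946, 0.0804 and 0.0916). Cenpi and Cenpm passed as lower without E2f TKO 1 (adjusted p = 0.00771 and 0.0262). A pair of dimmer Cenpk probe sets did pass, at 0.59 and 0.38 (adjusted p = 0.00294 and 0.00759 over probe sets). Cenpo read 8.57, 8.78, 8.73, 9.12 and 8.90 in E2f/Myc QKO arrays, 8.28, 8.45, 8.53, 8.77 and 8.44 in E2f TKO arrays and 8.29, 8.16, 8.41 and 8.34 in Myc KO arrays, against 8.29, 8.37, 8.32 and 8.45 in control arrays. The E2f/Myc QKO arrays lay above all control arrays, with a difference of 0.46 ± 0.10 (adjusted p = 0.0033). That call came from a probe set of the _s_at kind, which can match several transcripts, and without such sets the difference was 0.16 (adjusted p = 0.359). Cenpp and Cenpq, which act with Cenpo, did not pass, at 0.06 and 0.18. Cenpt, whose protein binds DNA and the NDC80 complex, read 9.26, 9.24, 9.10, 9.37 and 9.19 in E2f/Myc QKO arrays, 8.53, 8.94, 8.98, 9.06 and 8.93 in E2f TKO arrays and 9.16, 9.02, 9.09 and 9.10 in Myc KO arrays, against 8.93, 8.91, 8.93 and 9.12 in control arrays. Array E2f/Myc QKO 3 overlapped the control arrays through control 4, and the difference was 0.26 ± 0.09 (adjusted p = 0.0404), lost without control 1, 2 or 3 or without E2f/Myc QKO 1, 2, 4 or 5 (adjusted p 0.0521 to 0.101).

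Of the 11 outer kinetochore genes measured, 3 fell and 3 rose in E2f/Myc QKO crypts. Within the NDC80 complex, which grips microtubules, Spc25 and Ndc80 fell and the other subunits did not pass. Spc25 read 8.05, 7.87, 8.21, 8.68 and 8.82 in E2f/Myc QKO arrays, 8.30, 9.22, 8.55, 8.87 and 9.08 in E2f TKO arrays and 9.23, 9.15, 9.59 and 9.70 in Myc KO arrays, against 9.33, 9.46, 9.63 and 9.51 in control arrays. All E2f/Myc QKO arrays lay below all Myc KO and control arrays, and the difference from control was -1.16 ± 0.20 (adjusted p = 0.000493). Averaged over the 2 Spc25 probe sets the difference was -0.53, so the dimmer set did not fall. Ndc80 read 6.76, 6.81, 6.85, 7.14 and 6.87 in E2f/Myc QKO arrays, 6.34, 7.31, 6.97, 7.18 and 7.34 in E2f TKO arrays and 7.70, 7.56, 7.83 and 8.07 in Myc KO arrays, against 7.70, 7.45, 7.86 and 7.70 in control arrays. Here the E2f/Myc QKO and E2f TKO arrays all lay below every Myc KO and control array, and the E2f/Myc QKO difference from control was -0.79 ± 0.16 (adjusted p = 0.00194). Nuf2, the direct partner of Ndc80, differed by -0.34 with a 95% interval of -0.76 to 0.08, and Spc24, the partner of Spc25, by -0.05 (-0.43 to 0.34). Ska1, part of the complex that helps hold moving microtubule ends, fell by 0.80 (adjusted p = 0.00698), and Ska2 did not pass (-0.16).

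No gene of the MIS12 complex, the bridge between inner and outer layers, fell in E2f/Myc QKO crypts. Dsn1 read 8.30, 8.49, 8.73, 8.89 and 8.89 in E2f/Myc QKO arrays, 7.91, 8.29, 8.41, 8.48 and 8.43 in E2f TKO arrays and 8.20, 7.97, 8.25 and 8.26 in Myc KO arrays, against 8.16, 8.15, 8.20 and 8.25 in control arrays. Every E2f/Myc QKO array lay above every control array, and the difference was 0.47 ± 0.13 (adjusted p = 0.0103). Dsn1 lies 2.44 Mb from E2f1, one of the deleted genes. Pmf1 read 9.83, 9.91, 9.73, 9.91 and 9.73 in E2f/Myc QKO arrays, 9.46, 9.48, 9.60, 9.77 and 9.58 in E2f TKO arrays and 9.93, 9.66, 9.70 and 9.65 in Myc KO arrays, against 9.59, 9.51, 9.58 and 9.61 in control arrays. Its E2f/Myc QKO arrays lay above the control arrays, with a difference of 0.25 ± 0.08 (adjusted p = 0.0205). That call was lost without control 2 (adjusted p = 0.0605) or without E2f/Myc QKO 2 (adjusted p = 0.0506). The second Pmf1 probe set differed by -0.10. Mis12 and Nsl1 did not pass, at -0.14 and 0.07. Zwint, the outer kinetochore protein that helps recruit the RZZ complex, read 10.51, 10.58, 10.76, 10.65 and 10.45 in E2f/Myc QKO arrays, 10.30, 10.33, 10.54, 10.75 and 10.29 in E2f TKO arrays and 10.14, 10.11, 10.18 and 10.21 in Myc KO arrays, against 10.23, 10.06, 10.04 and 10.32 in control arrays. The E2f/Myc QKO arrays lay above all Myc KO and control arrays, and the difference from control was 0.43 ± 0.09 (adjusted p = 0.00316).

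**Figure D2:**
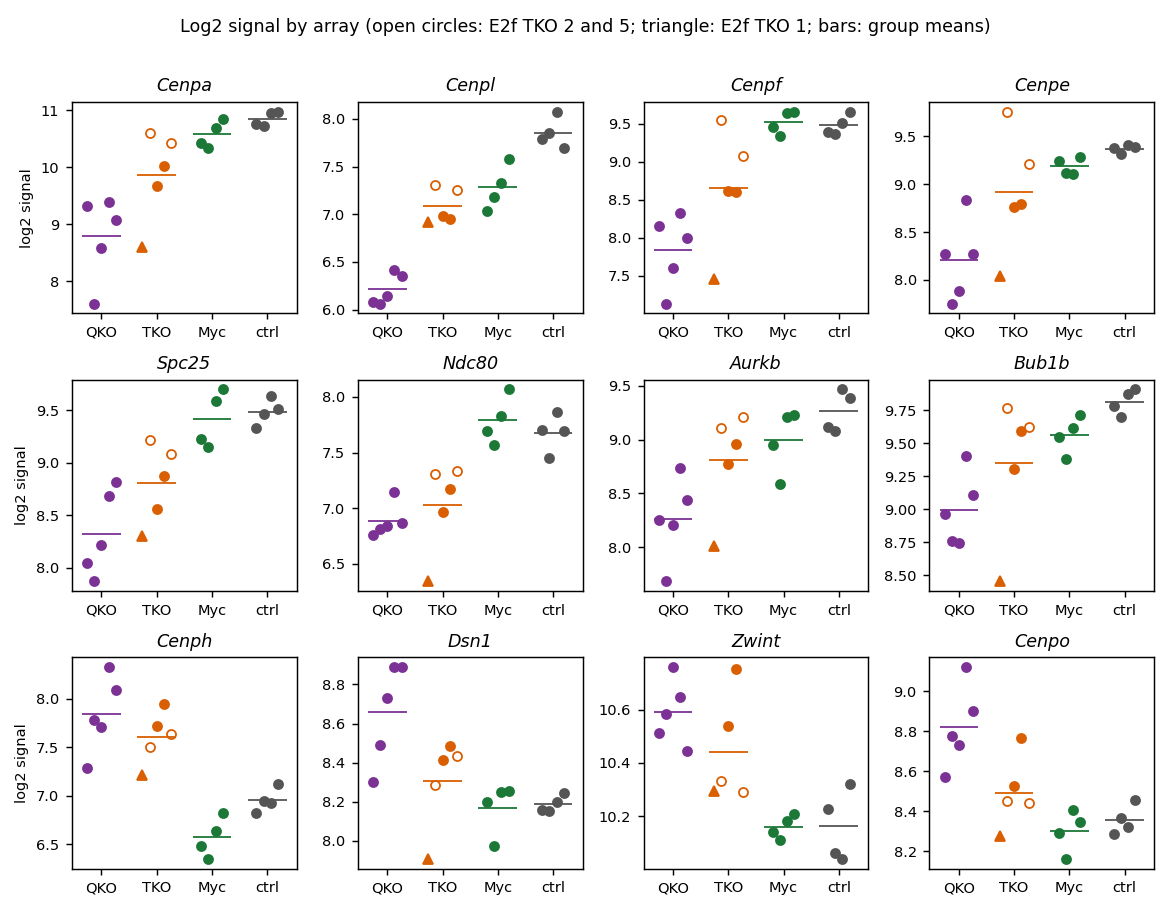
Log2 signal (y axis) of 12 members on each array, in groups from left to right E2f/Myc QKO (QKO), E2f TKO (TKO), Myc KO (Myc) and control (ctrl), with bars at group means. Open circles are the arrays labelled E2f TKO 2 and 5 and the triangle is E2f TKO 1, and for Cenpl the E2f/Myc QKO arrays (6.06 to 6.42) lie below all other arrays.

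The motor and corona genes Cenpe and Cenpf both fell in E2f/Myc QKO crypts. Cenpf, which encodes a large protein of the kinetochore's outermost layer, read 8.16, 7.13, 7.60, 8.32 and 8.00 in E2f/Myc QKO arrays, 7.46, 9.56, 8.62, 8.60 and 9.08 in E2f TKO arrays and 9.46, 9.34, 9.65 and 9.66 in Myc KO arrays, against 9.40, 9.36, 9.51 and 9.65 in control arrays. All E2f/Myc QKO arrays lay below all Myc KO and control arrays, with a difference from control of -1.64 ± 0.30 (adjusted p = 0.000801). The other Cenpf probe sets, at mean signals of 6.48 and 5.56, differed by -0.18 and -0.67 (adjusted p = 0.349 and 0.0125 over probe sets). Cenpe, the kinesin that carries chromosomes to the spindle's middle, read 8.27, 7.75, 7.89, 8.83 and 8.28 in E2f/Myc QKO arrays, 8.04, 9.75, 8.76, 8.79 and 9.21 in E2f TKO arrays and 9.24, 9.12, 9.11 and 9.28 in Myc KO arrays, against 9.37, 9.31, 9.41 and 9.38 in control arrays. Again the 5 E2f/Myc QKO arrays lay below every Myc KO and control array, and the difference from control was -1.17 ± 0.25 (adjusted p = 0.00235). Zwilch, a subunit of the RZZ complex that brings dynein and checkpoint proteins to the corona, read 9.46, 9.80, 9.43, 10.08 and 9.89 in E2f/Myc QKO arrays, 9.08, 9.90, 9.71, 9.78 and 9.57 in E2f TKO arrays and 9.12, 9.08, 9.11 and 9.39 in Myc KO arrays, against 9.31, 9.43, 9.41 and 9.69 in control arrays. Its E2f/Myc QKO and control arrays overlapped, and the difference of 0.27 did not pass (adjusted p = 0.21).

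Among the 6 checkpoint genes, Bub1b and Ttk fell, Mad1l1 rose and Bub1, Bub3 and Mad2l1 did not pass. Bub1b encodes BUBR1, which holds back the anaphase-promoting complex. It read 8.96, 8.76, 8.74, 9.40 and 9.11 in E2f/Myc QKO arrays, 8.45, 9.77, 9.31, 9.59 and 9.62 in E2f TKO arrays and 9.55, 9.38, 9.61 and 9.71 in Myc KO arrays, against 9.79, 9.70, 9.87 and 9.91 in control arrays. The E2f/Myc QKO arrays all lay below the control arrays, with a difference of -0.82 ± 0.20 (adjusted p = 0.00618). Its second probe set fell by 0.75, but another, dim set, at a mean signal of 5.92, rose by 0.29 (adjusted p = 0.0147 and 0.0364 over probe sets), and this was the only member with probe sets passing in both directions. Ttk, the kinase MPS1 that starts the checkpoint signal, read 7.81, 7.62, 7.55, 8.42 and 8.11 in E2f/Myc QKO arrays, 7.33, 8.56, 8.16, 8.38 and 8.36 in E2f TKO arrays and 8.34, 8.07, 8.49 and 8.55 in Myc KO arrays, against 8.33, 8.37, 8.76 and 8.70 in control arrays. Array E2f/Myc QKO 4 overlapped the control arrays, and the difference was -0.64 ± 0.21 (adjusted p = 0.0352), lost without control 3 or 4 or E2f/Myc QKO 1, 2 or 3 (adjusted p 0.0646 to 0.1).

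Mad1l1, which tethers MAD2 at unattached kinetochores, read 7.14, 7.37, 7.04, 7.50 and 7.47 in E2f/Myc QKO arrays, 7.10, 7.29, 7.39, 7.55 and 7.22 in E2f TKO arrays and 7.05, 6.97, 7.05 and 6.83 in Myc KO arrays, against 6.92, 6.78, 6.89 and 7.05 in control arrays. One E2f/Myc QKO array, at 7.04, overlapped the highest control array at 7.05, and the difference was 0.39 ± 0.10 (adjusted p = 0.0105). Mad2l1, which encodes MAD2 itself, ranged from 10.31 to 10.87 in E2f/Myc QKO arrays, against 10.40 to 10.72 in control arrays. Its difference was -0.02, with a 95% interval of -0.35 to 0.31. The kinase gene Bub1 differed by -0.53 (adjusted p = 0.0743) and Bub3 by -0.25, neither passing. Both passed as lower without E2f TKO 1 (adjusted p = 0.0114 and 0.0255).

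All 4 genes of the chromosomal passenger complex read lower on average in E2f/Myc QKO crypts, and Aurkb and Birc5 passed. Aurkb, the kinase of the complex, read 8.25, 7.68, 8.21, 8.73 and 8.44 in E2f/Myc QKO arrays, 8.01, 9.11, 8.77, 8.96 and 9.21 in E2f TKO arrays and 8.95, 8.59, 9.21 and 9.23 in Myc KO arrays, against 9.12, 9.08, 9.47 and 9.39 in control arrays. All 5 E2f/Myc QKO arrays lay below every control array, and the difference was -0.999 ± 0.224 (adjusted p = 0.0034). A second Aurkb probe set fell by 1.53 (adjusted p = 7.49e-05 over probe sets). Birc5, which encodes survivin and targets the complex to centromeres, read 10.43, 10.18, 10.42, 10.83 and 10.75 in E2f/Myc QKO arrays, 10.04, 11.05, 10.84, 11.07 and 11.00 in E2f TKO arrays and 10.89, 10.70, 10.90 and 11.16 in Myc KO arrays, against 11.02, 10.93, 11.18 and 11.20 in control arrays. The E2f/Myc QKO arrays lay below the control arrays, with a difference of -0.56 ± 0.18 (adjusted p = 0.0291), a call lost without control 3 or 4 or E2f/Myc QKO 1, 2 or 3 (adjusted p 0.0568 to 0.0786). The scaffold gene Incenp read 10.62, 10.37, 10.34, 10.88 and 10.59 in E2f/Myc QKO arrays, 9.79, 11.04, 10.74, 10.90 and 10.94 in E2f TKO arrays and 10.98, 10.90, 11.12 and 11.18 in Myc KO arrays, against 10.90, 10.87, 11.04 and 11.05 in control arrays. Only E2f/Myc QKO 4 reached the control arrays, and the difference of -0.41 did not pass (adjusted p = 0.122). Cdca8, which encodes borealin, differed by -0.34 (adjusted p = 0.185). Without E2f TKO 1, Incenp and Cdca8 passed as lower (adjusted p = 0.00564 and 0.0307).

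Genes of 3 further lists were also read in E2f/Myc QKO crypts, where 26.9% of all genes were called. Of 39 measured further kinetochore and centromere genes, 14 fell and 3 rose (43.6% called, median -0.22). The smallest p values there were for Itgb3bp, which encodes CENP-R (-1.05 ± 0.17, adjusted p = 0.000258), and for Knstrn, a spindle and kinetochore gene (-1.36 ± 0.23, adjusted p = 0.000413). Next came Cenps, which rose by 0.91 ± 0.16 (adjusted p = 0.000597), and the kinesin gene Kif18a, at -1.30 ± 0.24 (adjusted p = 0.000776). Of 14 other mitosis genes 12 fell and none rose (85.7% called, median -1.32). Of 15 DNA replication genes 12 rose and none fell (80% called, median 0.81). In E2f TKO crypts these counts were 2 lower of 39 (5.13%), 1 lower of 14 (7.14%) and 6 higher of 15 (40%), against 2.90% of all genes. In Myc KO crypts 3 were lower and 1 higher of 39 (10.3%), with 0 of 14 and 0 of 15 called, against 8.31% of all genes.

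**Figure D3:**
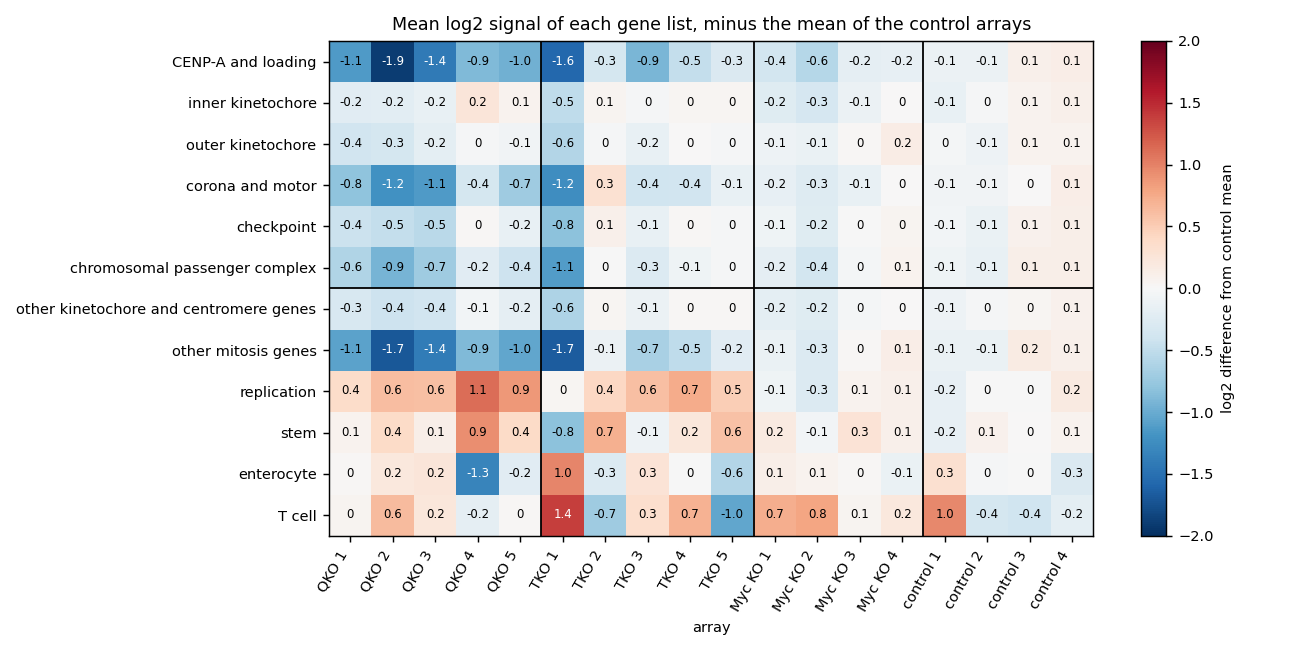
Mean log2 signal of each gene list (rows, the 6 role classes of the members above the line and 6 other lists below it) on each array (columns), as a difference from the control mean, in colour and as a printed number. Among the role classes, CENP-A and its loading genes have the lowest value in each E2f/Myc QKO (QKO) array, at -1.89 to -0.88, and E2f TKO (TKO) 1 has low values in all 6 role classes, at -1.58 to -0.51.

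In E2f TKO crypts, Cenpl and Ndc80 fell and Mad1l1 rose against control, 3 of 37 members. Of all genes, 2.90% were called, 1.68% higher and 1.22% lower. This comparison and those above and below share the same 4 control arrays. With the array values given above, every E2f TKO array lay below every control array for Cenpl and Ndc80, and above for Mad1l1. Cenpl differed by -0.77 ± 0.12 (adjusted p = 0.00118). Ndc80 differed by -0.65 ± 0.16 (adjusted p = 0.0394), a call that 10 of the 18 arrays could each end when omitted, namely E2f/Myc QKO 2, 3 and 5, Myc KO 1 and 3, E2f TKO 3 and 4, and control 1, 3 and 4 (adjusted p 0.0509 to 0.139). Mad1l1 differed by 0.40 ± 0.10 (adjusted p = 0.0471), lost without any 1 of 12 arrays (any control or Myc KO array, E2f TKO 2, 3 or 4, or E2f/Myc QKO 2, adjusted p 0.0521 to 0.16). Averaged over its 2 probe sets the Mad1l1 difference was 0.21 and did not pass (adjusted p = 0.0791). After quantile normalization 2 members were lower and 0 higher, where 530 of all 18193 genes were called. Leaving out E2f/Myc QKO 2, Myc KO 1 or 3, either of E2f TKO 3 and 4, or one of control 1, 3 and 4 brought the member count to 1. With these arrays left out 1 at a time, 1.52% to 2.59% of all genes were called.

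The members' median in E2f TKO crypts was -0.16, against -0.00 over all genes. It was -0.02 without E2f TKO 1, -0.10 without control 3 and -0.31 with both E2f TKO 2 and E2f TKO 5 left out. An unadjusted p below 0.05 was reached by 13 members (35.1%) and by 14.0% of all genes. Groups of arrays did not overlap for 7 members (18.9%) and for 5.43% of all genes. Cenpa, at -0.98, and Cenpf, at -0.82, had the lowest values and did not pass (adjusted p = 0.191 for Cenpa). Without the arrays labelled E2f TKO 2 and 5, 10 members passed, 8 lower and 2 higher, where 7.27% of all genes were called. The 8 were Cenpa (-1.42), Cenpf (-1.25), Spc25 (-0.91), Cenpl (-0.90), Ndc80 (-0.85), Cenpe (-0.84), Cenpc1 (-0.60) and Bub3 (-0.43), and the pair that rose were Mad1l1 (0.44) and Zwint (0.37). Only 3 E2f TKO arrays then remained, and 1 of them was array 1. Without E2f TKO 1 instead, 4 members passed (4.56% of all genes), Cenpl at -0.73, Ndc80 at -0.48, Mad1l1 at 0.45 and Cenph at 0.75.

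In Myc KO crypts 1 of 37 members was called, Cenpl, where 8.31% of all genes were called, 3.59% higher and 4.72% lower. Cenpl differed from control by -0.57 ± 0.13 (adjusted p = 0.0113), with all Myc KO arrays (7.03 to 7.58) below all control arrays (7.69 to 8.07), and the call held without any single array. The members' median was -0.07, against 0.02 over all genes. It was -0.01 without Myc KO 2, -0.13 without Myc KO 4, -0.12 without control 1 and -0.02 without control 4. An unadjusted p below 0.05 was reached by 4 members (10.8%) and by 23.8% of all genes. Groups of arrays did not overlap for 5 members (13.5%) and for 22.4% of all genes. Cenpf and Ndc80, which fell in E2f/Myc QKO crypts, differed by 0.05 (95% interval -0.62 to 0.72) and 0.11 (-0.25 to 0.48) in Myc KO crypts. Cenph, at -0.38 (-0.77 to -0.00), did not pass.

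The share of each list called in each comparison is drawn beside the share of all genes. Members were called at 54.1% in E2f/Myc QKO against control, 8.11% in E2f TKO and 2.7% in Myc KO, where 26.9%, 2.90% and 8.31% of all genes were called.

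**Figure D4:**
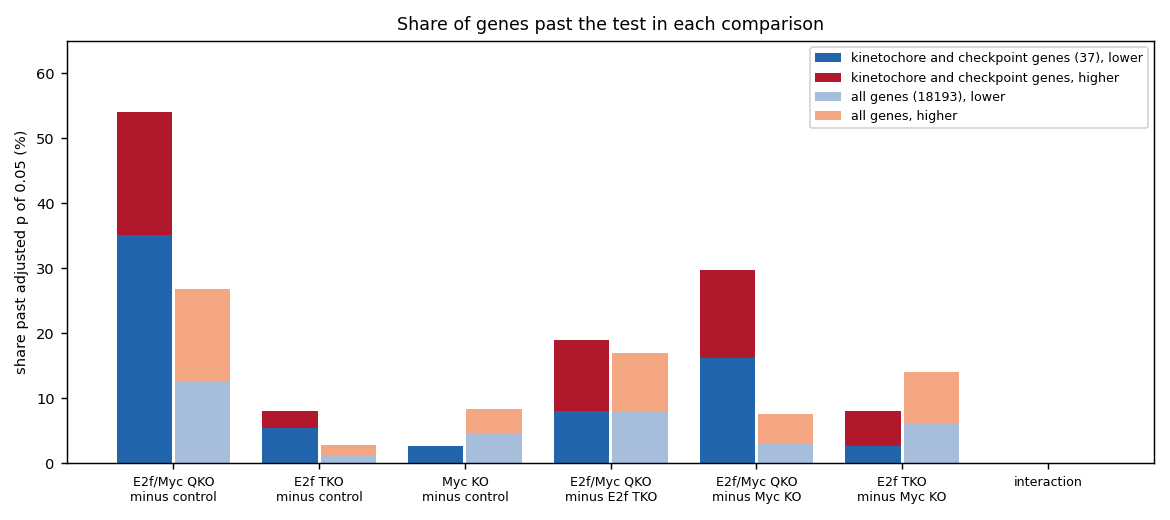
Percent of the 37 members and of all 18193 genes that passed the test (y axis) in each of the 7 comparisons (x axis), drawn from 0. For the interaction the bars are 0 for members and 0.0550 for all genes.

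E2f/Myc QKO crypts were set directly against E2f TKO crypts, which by label adds loss of Myc. The E2f TKO group holds arrays 2 and 5, which went against their label, so loss of Myc cannot be told apart here from further E2f loss. Cenpl, Cenpa and Cenpe were lower and Cenpo, Cenpt, Dsn1 and Pmf1 higher, 7 of 37 members. Of all genes, 17.0% were called, 9.09% higher and 7.95% lower. The median of the members was -0.10, and it moved with single arrays. It was -0.23 without E2f TKO 1, -0.03 without E2f TKO 2, 0.01 without E2f TKO 4, -0.06 without E2f TKO 5, -0.05 without E2f/Myc QKO 2, -0.07 without E2f/Myc QKO 3 and 0.02 without both E2f TKO 2 and 5. After quantile normalization the median was -0.04, with 6 members higher and 2 lower, where 2943 of all 18193 genes were called. Cenpl differed by -0.87 ± 0.11 (adjusted p = 0.000128), without overlap of the arrays, and Cenpt by 0.34 ± 0.09 (adjusted p = 0.0113), also without overlap. Cenpa differed by -1.07 ± 0.34 (adjusted p = 0.0376), lost without E2f TKO 2, 3, 4 or 5 or E2f/Myc QKO 2 or 3 (adjusted p 0.0518 to 0.0993). It was -0.25 where its probe sets were averaged (adjusted p = 0.316) and -0.64 with both E2f TKO 2 and E2f TKO 5 left out (0.255). Cenpe differed by -0.71 ± 0.23 (adjusted p = 0.0462), lost when any array but E2f TKO 1 and E2f/Myc QKO 4 was left out (adjusted p 0.0551 to 0.12), and was -0.33 without E2f TKO 2 and 5 (0.312).

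The other rises against E2f TKO were small. Dsn1 differed by 0.36 ± 0.12 (adjusted p = 0.0475), lost when any of 14 arrays was left out (adjusted p 0.0515 to 0.106), that is any but E2f TKO 4, Myc KO 2 and E2f/Myc QKO 1 and 2. Cenpo differed by 0.33 ± 0.10 (adjusted p = 0.0284), lost without E2f TKO 1, 2 or 5 or E2f/Myc QKO 4 or 5 (adjusted p 0.0502 to 0.0671), and Pmf1 by 0.24 ± 0.07 (adjusted p = 0.0259), lost without E2f TKO 2 or E2f/Myc QKO 2 or 4 (adjusted p 0.0578 to 0.0664). Without _s_at and _x_at probe sets the sign turned for both, to -0.057 for Cenpo (adjusted p = 0.77) and -0.026 for Pmf1 (0.869). The count rested on few arrays. It was 17 without E2f TKO 1 (23.6% of all genes), with 15 lower, among them Cenpa (-1.38), Cenpf (-1.12), Aurkb (-0.75), Spc25 (-0.61) and Bub1b (-0.58). Omitting E2f TKO 2 gave 2 (12.8% of all genes), E2f TKO 5 gave 3 (14%), E2f TKO 3 gave 4 (14.2%) and E2f/Myc QKO 3 gave 4 (13.3%). Without both arrays labelled E2f TKO 2 and 5, 3 members passed (11.8% of all genes), Cenpl at -0.74, Cenpt at 0.38 and Cenpk at 0.62.

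Against Myc KO, which adds loss of the E2f genes, 11 of 37 members passed in E2f/Myc QKO crypts, 5 higher and 6 lower. Of all genes, 7.68% were called, 4.60% higher and 3.09% lower. Lower were Cenpa at -1.78 ± 0.36 (adjusted p = 0.00486), Cenpf at -1.68 ± 0.30 (adjusted p = 0.00225), Spc25 at -1.09 ± 0.20 (adjusted p = 0.00272), Cenpl at -1.07 ± 0.12 (adjusted p = 3.95e-05), Cenpe at -0.98 ± 0.25 (adjusted p = 0.0209) and Ndc80 at -0.90 ± 0.16 (adjusted p = 0.00247). Higher were Cenph at 1.27 ± 0.17 (adjusted p = 0.000236), Zwilch at 0.56 ± 0.15 (adjusted p = 0.0352), Cenpo at 0.52 ± 0.10 (adjusted p = 0.00461), Dsn1 at 0.49 ± 0.13 (adjusted p = 0.0221) and Zwint at 0.43 ± 0.09 (adjusted p = 0.00928). Cenph read 6.35 to 6.82 in Myc KO arrays, near their medians of 6.22 to 6.26, so the size of its difference is uncertain. For all 11 the E2f/Myc QKO and Myc KO arrays did not overlap, as for 15 members in all (40.5%) and 13.7% of all genes. The members' median was -0.28. With probe sets averaged Cenpa was at -0.86, Cenpf at -1.10 and Spc25 at -0.63, each still passing. Single arrays ended the calls of Cenpe (Myc KO 1 or 4 or E2f/Myc QKO 2 or 3, adjusted p 0.0508 to 0.0605), Zwilch (Myc KO 1, 2 or 3 or E2f/Myc QKO 2, 4 or 5, 0.0736 to 0.096) and Dsn1 (Myc KO 2 or E2f/Myc QKO 4 or 5, 0.0563 to 0.0822). Without E2f TKO 1, which lies in neither group but enters the shared spread, 20 members passed (11% of all genes).

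E2f TKO and Myc KO crypts differed in 3 of 37 members, where 14.0% of all genes were called, 7.87% higher and 6.16% lower. Cenph was higher, at 1.03 ± 0.17 (adjusted p = 0.000867), Mad1l1 higher, at 0.34 ± 0.10 (adjusted p = 0.0407), and Ndc80 lower, at -0.76 ± 0.16 (adjusted p = 0.00531), each without overlap of the arrays. The Myc KO signals of Cenph lay near the array medians, so the size of its difference is uncertain. Mad1l1 was lost without any Myc KO array, control 3 or E2f TKO 2, 3 or 4 (adjusted p 0.0511 to 0.115). With its probe sets averaged the Mad1l1 difference was 0.12 and did not pass (adjusted p = 0.209). The directions moved with the arrays kept. After quantile normalization 2 were higher and 5 lower (14.9% of all genes). Omitting E2f TKO 1 gave 6 higher and 1 lower (21.8%), E2f TKO 2 gave 1 higher and 4 lower (11.4%), E2f TKO 5 gave 3 higher and 2 lower (12.7%), and both 2 and 5 gave 2 higher and 5 lower (12.5%).

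Whether loss of Myc and of the E2f genes, by label, added up on the log2 scale was tested by their interaction. It is the difference of E2f/Myc QKO from E2f TKO less the difference of Myc KO from control. The E2f TKO group holds arrays 2 and 5, which went against their label, so this test cannot decide whether the losses themselves add up. By limma 0 members passed, and 0.0550% of all genes were called, 0.0385% higher and 0.0165% lower. An unadjusted p below 0.05 was reached by 4 members (6.34% of all genes), all with positive values, Cenph (0.62), Cenpk (0.53), Cenpo (0.38) and Dsn1 (0.37). Without E2f TKO 1 the signs were mixed, where 11 members reached that p (8.15% of all genes), 2 positive and 9 negative, with Cenpf at -1.17 and Cenpa at -1.11, and again 0 passed after adjustment. For 3 members that fell the interaction was -0.79 for Cenpa (95% interval -1.86 to 0.27), -0.30 for Cenpl (-0.66 to 0.06) and -0.86 for Cenpf (-1.76 to 0.04). With both E2f TKO 2 and E2f TKO 5 left out it was -0.36 for Cenpa, -0.17 for Cenpl and -0.43 for Cenpf.

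Promoter windows were then read for sequence features that the choice of members had not used. RefSeq windows of GRCm38.p6, from 250 bases before to 50 bases after the start, matched 31 of the 37 members. The CHR element (TTTGAA) is a short promoter element of many genes transcribed late in the cell cycle, where it is bound by the MuvB core of the DREAM and MYB complexes, and it often stands downstream of CCAAT boxes bound by NF-Y. Also searched were E2F words (TTTCGCGC, TTTGGCGC, TTTCCCGC) and the E-box CACGTG, which Myc and its partner Max can bind, all on both strands. No pair of these words overlapped in the windows shown. The windows of 5 members that fell are shown first. Cenpa, Cenpl, Cenpf and Spc25 were picked for the smallest p of their role classes in E2f/Myc QKO against control. All 5 hold the CHR word. Cenpe, Cenpc1 and Birc5, which fell without it, and Dsn1, which rose and holds an E2F word, are not shown. The windows of Mad2l1, which did not pass, and Cenph, which rose and was picked after its values were seen, follow for contrast. The windows shown are thus examples chosen on their values. Capitals mark the words found.
Cenpa, chr5:30666636-30666935, plus strand: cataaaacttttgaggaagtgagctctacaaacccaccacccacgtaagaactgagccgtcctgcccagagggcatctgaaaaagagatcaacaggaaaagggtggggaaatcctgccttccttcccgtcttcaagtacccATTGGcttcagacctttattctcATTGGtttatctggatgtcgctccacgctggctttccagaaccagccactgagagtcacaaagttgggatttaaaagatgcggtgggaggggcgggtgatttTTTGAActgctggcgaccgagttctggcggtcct
Cenpl, chr1:161070517-161070816, plus strand: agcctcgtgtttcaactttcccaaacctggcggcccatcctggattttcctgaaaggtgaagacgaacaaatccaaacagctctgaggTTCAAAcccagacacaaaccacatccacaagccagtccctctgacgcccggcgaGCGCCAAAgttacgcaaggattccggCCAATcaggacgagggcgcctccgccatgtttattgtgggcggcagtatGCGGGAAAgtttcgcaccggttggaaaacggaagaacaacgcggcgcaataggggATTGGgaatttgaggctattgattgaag
Cenpf, chr1:189688037-189688336, minus strand: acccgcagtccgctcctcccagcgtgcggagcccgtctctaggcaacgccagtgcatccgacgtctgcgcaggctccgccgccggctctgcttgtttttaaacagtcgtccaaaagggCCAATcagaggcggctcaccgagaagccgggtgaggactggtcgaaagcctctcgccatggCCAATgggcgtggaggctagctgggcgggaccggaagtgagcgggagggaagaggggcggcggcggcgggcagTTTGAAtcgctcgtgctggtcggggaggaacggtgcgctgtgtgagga
Spc25, chr2:69206164-69206463, minus strand: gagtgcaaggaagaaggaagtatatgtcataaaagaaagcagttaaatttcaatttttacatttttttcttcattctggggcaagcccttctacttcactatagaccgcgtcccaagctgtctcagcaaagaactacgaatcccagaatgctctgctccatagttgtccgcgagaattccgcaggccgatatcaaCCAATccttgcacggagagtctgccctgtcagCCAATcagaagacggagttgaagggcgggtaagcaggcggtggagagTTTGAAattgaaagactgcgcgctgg
Ndc80, chr17:71526808-71527107, minus strand: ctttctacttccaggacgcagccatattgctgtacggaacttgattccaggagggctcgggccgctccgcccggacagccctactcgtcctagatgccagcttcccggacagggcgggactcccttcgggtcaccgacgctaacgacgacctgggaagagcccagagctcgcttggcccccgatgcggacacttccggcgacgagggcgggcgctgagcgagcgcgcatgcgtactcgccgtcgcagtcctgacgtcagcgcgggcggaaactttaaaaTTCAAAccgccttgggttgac
Mad2l1, chr6:66534971-66535270, plus strand: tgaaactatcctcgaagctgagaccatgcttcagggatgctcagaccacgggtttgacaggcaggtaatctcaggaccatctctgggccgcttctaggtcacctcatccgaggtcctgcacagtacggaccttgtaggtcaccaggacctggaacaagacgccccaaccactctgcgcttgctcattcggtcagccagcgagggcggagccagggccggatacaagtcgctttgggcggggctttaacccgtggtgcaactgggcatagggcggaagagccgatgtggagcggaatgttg
Cenph, chr13:100775850-100776149, minus strand: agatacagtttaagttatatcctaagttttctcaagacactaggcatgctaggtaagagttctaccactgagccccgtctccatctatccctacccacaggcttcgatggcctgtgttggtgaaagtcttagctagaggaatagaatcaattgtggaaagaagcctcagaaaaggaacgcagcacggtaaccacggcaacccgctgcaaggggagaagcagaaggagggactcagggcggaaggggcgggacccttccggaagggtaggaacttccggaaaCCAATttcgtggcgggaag

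In Cenpa, Cenpf and Spc25 the CHR word stood near the start with a pair of CCAAT words upstream of it. Cenpl held 2 E2F words as well, and its CHR word lay farther upstream. Ndc80 held a CHR word on the opposite strand and no CCAAT word, Mad2l1 held none of the words, and Cenph held 1 CCAAT word. Over the 31 members with a window, the CHR word was found in 12 (38.7%), where 17.9% of all 32851 windows of the table hold it. The 3 members with several windows counted if any window held the word, which favours them over shares counted per window. CCAAT was found in 22 (71.0%, against 37.4% of all windows), both words in 11 (35.5%, against 6.95%), an E2F word in 3 (9.68%, against 1.84%) and the E-box in 2 (6.45%, against 7.15%). The E2F words were in Cenpl, Dsn1 and Cenpm, and the E-box in Ttk and Mad1l1. The E-box of Mad1l1 was not in the first of its 2 windows.

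Grouped by what they did in E2f/Myc QKO crypts, 8 of 11 members that fell held the CHR word (72.7%), 1 of 7 that rose (Pmf1) and 3 of 13 that did not pass (23.1%). The 8 were Cenpa, Oip5, Cenpl, Spc25, Ndc80, Cenpf, Bub1b and Ttk. The median difference was -0.72 over the 12 members with the word and -0.02 over the 19 without it. These are descriptions of few windows, with no test, and a match of 6 letters is not a bound site. Cenpe, Cenpc1 and Birc5 fell without the word in their windows.

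**Figure D5:**
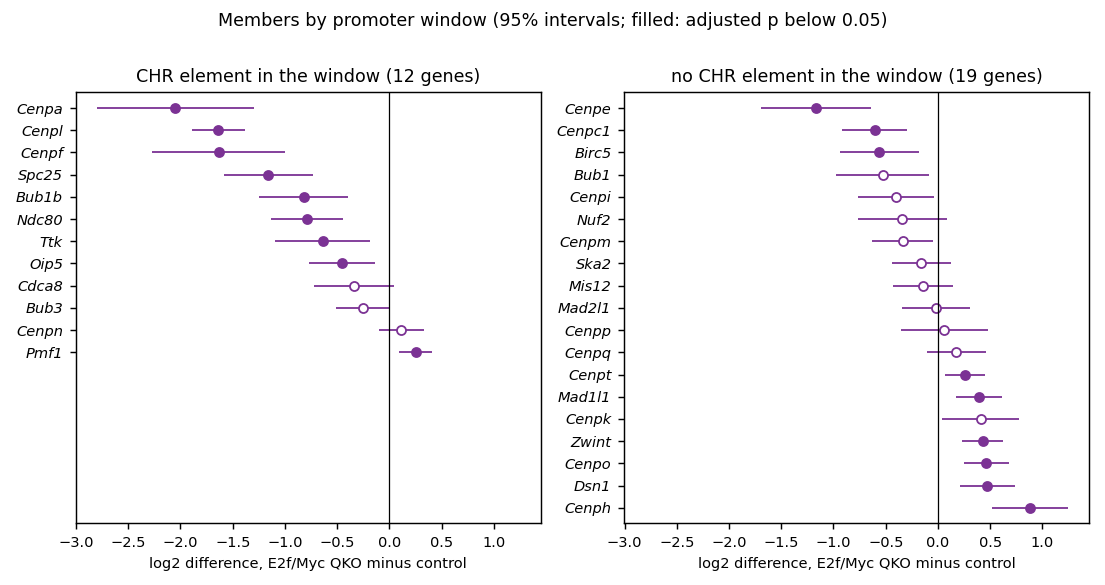
Log2 difference between E2f/Myc QKO and control with its 95% interval (x axis) for the 12 members with a CHR element in the promoter window (left) and the 19 without (right), each row a gene. Filled points passed the test, and the medians are -0.72 with the element and -0.02 without.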

How the data were processed

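Arrays of 45101 probe sets were hybridised with biotin-labelled total RNA of crypts, per the labels' protocols. The deposited values of the authors are log2 signals, a scale inferred from the values, and for neither normalization nor probe summary is a method given in the sources used here. All 18 columns matched a labelled sample. Precision is limited by the number of arrays.

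Of the probe sets 34945 carry 1 gene symbol and give 18193 genes, each read from its probe set of highest mean, without a filter on dim signals. In R 4.3.3, limma 3.58.1 fitted 4 group means to all arrays at once (lmFit, contrasts.fit, eBayes), two-sided, with Benjamini-Hochberg adjustment over all genes. Members with values on every array are the 3 of each role class with the smallest p in E2f/Myc QKO minus control and those past the test in another comparison. Probe sets were also tested one by one. Figures used matplotlib 3.10.9 and Python 3.11.15. Alternatives were quantile normalization, only genes over the median level, averaged probe sets per gene, no _s_at or _x_at sets, the compared groups alone, a replicate block, trended robust eBayes, array weights, Xist as a covariate, no E2f TKO 2 and 5, and each array left out. The members and lists were chosen with earlier results of these data known.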

Additional observations from a re-analysis of the deposited data

Results flagged for a closer look

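In 13 of 148 tests of a member within a group, 1 array lay far from the other arrays of its group, a gap that chance gives in about 1 of 20 such tests. The array E2f TKO 1 was the far one in 8 of the 13, low each time, at 8.28 for Cenpp, 8.15 for Cenpq, 8.53 for Cenpt, 7.77 for Ska2, 9.93 for Mad2l1, 9.79 for Incenp, 10.04 for Birc5 and 10.47 for Cdca8. Of these 8 genes, Cenpt and Birc5 passed in E2f/Myc QKO against control in the fit over all arrays. The other 6 passed there in no comparison with control. The other 5 were spread over groups. Array E2f/Myc QKO 4 read 7.14 for Ndc80, high in its group, and Myc KO 4 read 9.39 for Zwilch, also high. In the control group, array 1 read 8.60 for Cenpp and array 2 read 11.32 for Bub3, both low, and array 4 read 9.12 for Cenpt, high.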

How the results depend on the processing

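Of the 20 calls in E2f/Myc QKO against control, 14 kept direction and threshold under every alternative run, as did 6 of 11 against Myc KO, 1 of 7 against E2f TKO (Cenpl), 1 of 3 in E2f TKO against control (Cenpl), the 1 in Myc KO, and 2 of 3 between E2f TKO and Myc KO. Leaving out single arrays moved the member counts over 16 to 26 (E2f/Myc QKO against control), 2 to 17 (against E2f TKO), 9 to 20 (against Myc KO), 1 to 4 (E2f TKO against control), 1 to 1 (Myc KO against control), 2 to 7 (E2f TKO against Myc KO) and 0 to 0 (interaction). In what follows the share of all genes called under the same setting stands in brackets. For E2f TKO against control, with 3 members called (2.9%), the count was 1 in a fit of these groups alone (1.39%), 7 with the replicate block (3.59%), 10 with array weights (7.45%), 1 with Xist as a covariate (2.65%) and 10 when E2f TKO 2 and 5 were omitted (7.27%). For Myc KO against control, with 1 called (8.31%), it was 4 in the groups alone (14.7%), 3 with the replicate block (10%) and 2 with array weights (18.8%). For E2f/Myc QKO against E2f TKO, with 7 called (17%), it was 1 in the groups alone (8.51%) and 3 without E2f TKO 2 and 5 (11.8%). For E2f/Myc QKO against Myc KO, with 11 called (7.68%), it was 22 with array weights (12.4%). For E2f TKO against Myc KO, with 3 called (14%), it was 7 after quantile normalization (14.9%), 5 over genes above the median level (20.9%), 6 with averaged probe sets per gene (14.2%), 7 with the replicate block (14.3%), 11 with array weights (21.8%) and 7 without E2f TKO 2 and 5 (12.5%). The cause of these moves was not tested. Without _s_at and _x_at probe sets another probe set stood for Pmf1 and Cenpo, and the sign turned for Pmf1 against control (-0.10) and against E2f TKO (-0.026) and for Cenpo against E2f TKO (-0.057). Aurkb had no other probe set there. The labels do not say that replicate numbers pair arrays, and same-numbered arrays' deviations correlated at -0.16 to 0.35, above 0.1 in 13 of 25 pairs (median 0.148), against 27 of 96 pairs with different numbers (median -0.043). In 19 of 50 searches of another group the same-numbered array was the best correlated one, and for none of the 18 arrays was it so in every group. What the numbers share is not known. The replicate block lost Mad1l1 in E2f TKO against control (adjusted p = 0.0736) and against Myc KO (0.0642), and Cenpe in E2f/Myc QKO against E2f TKO (0.0564). Of calls in E2f/Myc QKO against control, quantile normalization lost Birc5 (adjusted p = 0.0702), and averaging probe sets per gene lost Ttk (0.051) and Pmf1 (0.463). Against Myc KO, averaging lost Cenpo (0.183) and Zwint (0.0685), omitting _s_at and _x_at sets lost Cenpo (0.266), and Xist lost Dsn1 (0.0657) and Zwilch (0.083). Dim probe sets, with no detection calls, limit differences such as that of Cenpl.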

Other observations

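Over all 80 probe sets of the 37 members, 22 were lower and 12 higher in E2f/Myc QKO than in control crypts, counted with p adjusted over all probe sets that have 1 symbol. The share of all such probe sets called was not counted, so these counts cannot be set against a background. Of the 21 members with several probe sets, Bub1b alone had sets passing in both directions.

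Cell marker lists were counted in E2f/Myc QKO against control, where 26.9% of all genes were called. Of 10 enterocyte genes 0 were called by limma, also 0 at an unadjusted p below 0.05, and of 8 T cell genes 1 was higher. Of 8 epithelial genes 1 was higher and 1 lower. Of 6 stem cell genes 1 was higher, of 4 Paneth genes 1 was lower, and 0 of 5 goblet genes (1 at an unadjusted p below 0.05) and 0 of 6 fibroblast genes (0 at that p) were called. Of 7 enteroendocrine genes 6 were higher (85.7%), with a median of 0.81. Gip, a gut hormone gene, differed by 1.41 ± 0.13 (adjusted p = 1.4e-06). In E2f TKO crypts 2 of the 7 were higher (28.6%), where 2.90% of all genes were called. In Myc KO crypts it was also 2 (28.6%), where 8.31% of all genes were called.

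Further deleted genes have a member as a neighbour within 20 Mb. Cdca8 lies 11.25 Mb from E2f2 and Cenpp 19.56 Mb from E2f3, and neither passed in a comparison of the fit over all arrays.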
